A study of Homo sapiens with 12 samples.

Results

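The 49 genes described here encode the Mediator complex with its kinase module and RNA polymerase II (Pol II). They were chosen by symbol from the protein-coding genes. MED1 to MED31 with their letter suffixes, CDK8, CDK19 and CCNC made up 33 genes, and the symbols starting with POLR2 made up 16. All 49 were among the 32960 genes with at least 1 UMI, the random tag that marks a captured RNA molecule, in any UMI table. The Mediator genes fell by role into 12 of the head, 7 of the middle, 5 of the tail, the scaffold MED14, the elongation-factor-binding MED26 and 7 of the kinase module. The Pol II genes were the 12 core subunits POLR2A to POLR2L and 4 others, namely POLR2M, POLR2J2 and a pair of genes with the symbol POLR2J3. Of that pair, ENSG00000168255 is annotated as a readthrough transcript and is called POLR2J3-readthrough below.

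UMIs per gene were deposited for the embryonic kidney line HEK293T and for the haploid line eHAP1. HEK293T single cells were profiled by LAST-seq in 1 library with the A60 spike-in mix and 1 with the ERCC mix, and by CEL-seq2 in 2 libraries, each a pool of 10 indexed wells. Wells of 15-pg HEK293T total RNA (LAST-seq) and of single-cell lysate (both assays) came from 1 library each. The eHAP1 cells were WT or SCC4 KO, each given as 1 sample with 2 batches of up to 80 pooled cells. SCC4 is the protein of the gene MAU2. The KO was made with Cas9 and grown from a single cell, and WT and KO cells alike were kept in 10-Deacetylbaccatin-III and sorted as live haploid cells in G1. A difference between the genotypes is therefore also a difference between clonal populations. HEK293T was sorted for live cells only and was not authenticated, by the study's methods. LAST-seq primes in vitro transcription directly on the captured RNA, whereas CEL-seq2 first makes double-stranded cDNA. Both count a molecule once near its 3′ end, so levels were not divided by transcript length and are given as UPM, the UMIs of a gene per 1000000 UMIs of all genes in that library or batch.

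Mediator carries signals from enhancer-bound transcription factors to Pol II at promoters. Its head and middle touch the polymerase, its tail binds activators, MED14 runs through all of them as a scaffold, and the kinase module (CDK8 or CDK19, cyclin C, MED12 and MED13 or their paralogs) binds reversibly. SCC4 is the partner of NIPBL in the loader that places cohesin on chromatin, and Mediator is known to associate with NIPBL and cohesin at active genes. Of the core subunits, POLR2E, POLR2F, POLR2H, POLR2K and POLR2L also belong to RNA polymerases I and III.

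Promoters are shown for the members on which the comparisons turn and that RefSeq's promoter table held, MED23 and POLR2L for the KO and MED4 and MED24 for the cell lines. Each is the 250 bases before the RefSeq start on GRCh38.p14, read along the minus strand on which all of these genes lie, with matches to the motifs below in capitals. MED23 lies at chr6:131628314-131628563, POLR2L at chr11:842530-842779, MED4 at chr13:48095105-48095354 and MED24 at chr17:40054409-40054658, where GENCODE has the last inside a longer MED24 transcript.
MED23: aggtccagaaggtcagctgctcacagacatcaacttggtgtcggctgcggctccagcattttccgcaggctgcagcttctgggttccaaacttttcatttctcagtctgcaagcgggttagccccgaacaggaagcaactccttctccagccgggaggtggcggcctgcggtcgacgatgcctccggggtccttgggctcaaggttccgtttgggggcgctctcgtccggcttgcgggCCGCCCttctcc
POLR2L: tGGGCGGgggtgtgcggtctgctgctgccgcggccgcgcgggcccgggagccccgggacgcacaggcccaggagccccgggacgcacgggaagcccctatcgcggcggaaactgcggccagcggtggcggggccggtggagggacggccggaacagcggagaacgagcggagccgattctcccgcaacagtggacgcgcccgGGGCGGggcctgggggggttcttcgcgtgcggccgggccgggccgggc
MED4: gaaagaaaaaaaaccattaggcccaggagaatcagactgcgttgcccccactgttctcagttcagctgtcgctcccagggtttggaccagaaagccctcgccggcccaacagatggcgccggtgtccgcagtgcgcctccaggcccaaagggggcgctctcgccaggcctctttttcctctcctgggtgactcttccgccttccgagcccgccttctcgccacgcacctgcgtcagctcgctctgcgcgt
MED24: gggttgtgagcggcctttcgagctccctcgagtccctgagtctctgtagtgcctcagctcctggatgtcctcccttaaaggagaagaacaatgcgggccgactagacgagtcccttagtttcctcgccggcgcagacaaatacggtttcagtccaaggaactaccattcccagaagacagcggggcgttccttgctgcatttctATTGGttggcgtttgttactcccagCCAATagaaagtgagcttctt
The motifs were the GC box GGGCGG and the CCAAT box CCAAT, searched on both strands, and the matches do not overlap. The first was held by 42.6% and the second by 32.0% of 35116 promoters of this length. MED23 had 1 GC box (on the other strand, CCGCCC), POLR2L had 2 GC boxes and MED24 had 2 CCAAT boxes, 1 of them on the other strand. MED4 had no match to either and is printed without capitals. A match is a description of the letters only. MED13, MED14, MED28 and POLR2J were not in the table.

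The HEK293T libraries held between 798047 and 1554129 UMIs each, the WT batches 7370620 (73 cells) and 12301326 (75 cells), and the KO batches 6434247 (77 cells) and 11678465 (76 cells). None of the 371 wells held values identical to another, and 67 of 78 cell barcodes occurred in all 4 eHAP1 batches. The median squared difference between the batches of a genotype, in SD units of counting, was 0.214 for WT and 0.119 for KO over genes with at least 1000 UMIs, below the 0.455 of counting alone. Over 10383 genes with at least 100 UMIs it was 0.865 and 0.728, and over the 43 members at that depth 0.583 and 0.572, above the counting level. The batches are parts of 1 sample per genotype and not replicates of it, so p-values from them were used among the alternatives only. Whether the deposited UMIs had passed a batch correction was not tested. MAU2 stood at 44.2 and 41.2 UPM in the WT batches and 9.17 and 14.5 in KO. UMIs near the 3′ end do not read the cut site, so this does not check the edit itself. Of 4 HEK293T markers, LIN28B (45.6 and 68.2 in LAST-seq cells, 26.5 and 22.3 in WT eHAP1) and NEFL (29.5 and 9.94 against 0 and 0) were higher in HEK293T. NEFM was listed at 0 in both LAST-seq libraries of HEK293T cells, and PAX2 went against the label with 0 and 1.32 in HEK293T and 14.9 and 16.0 in WT eHAP1. NEFL also differed between the genotypes, with 7.93 and 14.5 in KO.

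The core Pol II subunits together took 0.144% of UMIs in both WT batches, 0.152% in both KO batches, 0.163% and 0.174% in HEK293T by LAST-seq and 0.120% and 0.124% by CEL-seq2. Their levels were far from equal. POLR2E, a small subunit shared by all 3 polymerases, was the highest in WT eHAP1 at 339.9 and 343 UPM. POLR2A, the largest catalytic subunit with the C-terminal repeat domain, was the lowest at 13.8 and 11.4, so the highest over the lowest core subunit was 24.6 and 30.1. POLR2B, the other catalytic subunit, was at 21.7 and 24.8. Its range overlapped that of POLR2C (21.2 and 22.7), an assembly subunit that pairs with POLR2J. It also overlapped that of POLR2D (24.4 and 25), which forms the stalk with POLR2G. In order, POLR2L (223 and 225), POLR2I (206 and 209.7), POLR2F (191 and 193) and POLR2J (168 and 168) followed POLR2E without overlap. Below them, POLR2G (86.7 and 81.0) and POLR2K (80.1 and 78.4) stood close together, above POLR2H (59.7 and 57.5).

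In HEK293T cells by LAST-seq the spread was as wide, with 31.9 and 21.0 for the highest over the lowest core subunit. CEL-seq2 gave 5.30 and 6.53 on the same kind of cells. The catalytic subunits differed most. POLR2A was at 17.5 and 18.5 UPM by LAST-seq and at 124 and 75.6 by CEL-seq2, while POLR2B was at 12.6 and 18.5 against 52.8 and 109.9. The order of core subunit levels thus differed between the assays.

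**Figure D1:**
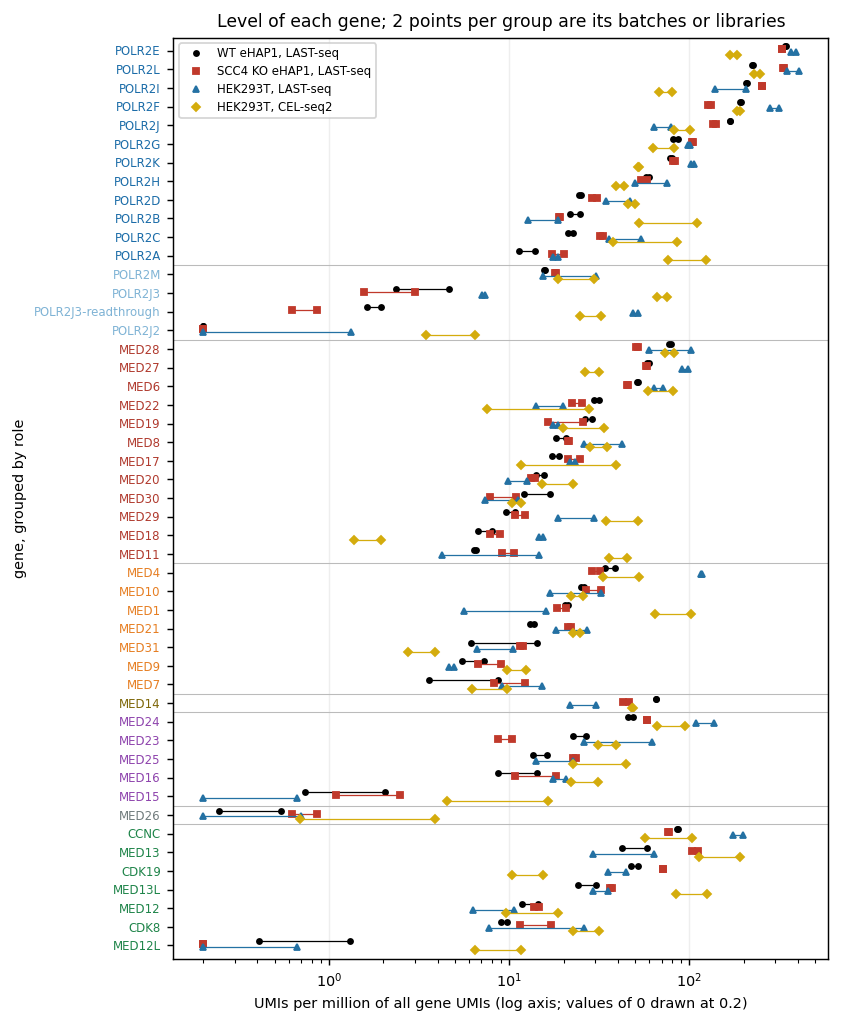
Level of each of the 49 genes in UPM (log axis, values of 0 drawn at 0.2), with 2 points per group for its batches or libraries, black for WT eHAP1, red for SCC4 KO, blue for HEK293T by LAST-seq and yellow for HEK293T by CEL-seq2. The black and red pairs lie close together for high genes, and POLR2A, POLR2B and MED1 stand out with CEL-seq2 points far to the right.

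Mediator genes took 0.0861% and 0.0853% of UMIs in WT and 0.0896% and 0.0902% in KO. The median Mediator gene was at 18.2 and 17.2 UPM in WT, against 83.4 and 79.7 for the median core Pol II subunit. CCNC, the cyclin of the kinase module, was the highest Mediator gene in WT at 86.4 and 85.1 and in HEK293T by LAST-seq at 175 and 199. The head subunit MED28 (78.8 and 77.1) and the scaffold MED14 (65.0 and 65.5) came next in WT. MED13, the subunit that ties the kinase module to the core complex, was the highest in KO (112 and 104) and in HEK293T by CEL-seq2 (191 and 113).

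Of the kinase pair in WT, CDK19 stood at 52.0 and 47.6 UPM and its paralog CDK8 at 8.95 and 9.76, without overlap. In HEK293T the order by LAST-seq was the same, with CDK19 at 35.1 and 44.4 and CDK8 at 7.72 and 25.8. By CEL-seq2 on the same line it was the other way, with CDK19 at 15.4 and 10.3 and CDK8 at 31.5 and 22.7. MED13 (42.5 and 58.0) was above its paralog MED13L (30.3 and 24), and MED12, which activates the kinase, was at 14.4 and 11.8. MED12L, the paralog of MED12, was near the limit of detection with 3 and 16 UMIs in WT and 0 in both KO batches. None of the 153 KO cells held a MED12L UMI, which allows a share of cells with a UMI of up to 1.96% and sets no limit on the share of cells that express it. Most of its WT UMIs came from 1 batch, and no fold is given. MED1, the subunit that nuclear receptors bind, was at 20.3 and 21.1 in WT.

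The other low members were MED26 (0.543 and 0.244 UPM in WT), MED15 (2.04 and 0.732) and the POLR2J3 genes. POLR2J2 was at 0 in all 4 eHAP1 batches. The last 500 bases of POLR2J2, POLR2J3 and POLR2J3-readthrough on chromosome 7 were covered to 100% by runs of 50 bases found in other genes, and 93.3% of those of POLR2J3 lay in POLR2J3-readthrough. Reads could fall to any of these copies, so their values are uncertain in every comparison below. Such sharing covered 15.7% for MED22, 5.32% for MED27, 0.887% for MED12 and none of the other members' ends.

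As shares of the summed core Pol II UMIs, which do not depend on the total, the subunits differed less between batches of 1 genotype than between genotypes. The part of core UMIs that would have to move between subunits to turn 1 profile into another was 0.885% between the WT batches, 0.869% between the KO batches, and 10.4% to 11% between a WT and a KO batch. It was 6.96% between the HEK293T LAST-seq libraries and 9.93% between those of CEL-seq2. Over genes with at least 1000 UMIs, batches of a genotype agreed more closely than counting alone gives (0.214 and 0.119 against 0.455). The distances between eHAP1 batches are thus no measure of the spread between independent samples. POLR2L moved most with the KO, from 15.5% (95% exact interval 14.9 to 16.3) and 15.7% (15.1 to 16.2) in WT to 21.8% (21.0 to 22.7) and 21.9% (21.3 to 22.6) in KO. POLR2F went the other way, from 13.3% (12.7 to 14) and 13.4% (12.9 to 13.9) to 8.60% (8.06 to 9.18) and 8.36% (7.96 to 8.78). These intervals cover counting error only.

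POLR2L and POLR2F are both shared with polymerases I and III, and the shared subunits as a group took nearly the same part in both genotypes. They held 62.3% (61.3 to 63.2) and 62.3% (61.6 to 63.0) in the WT batches and 61.0% (60.0 to 61.9) and 60.9% (60.1 to 61.6) in the KO batches. In HEK293T they held 74.1% (72.3 to 75.9) and 71.0% (69.3 to 72.8) of core UMIs by LAST-seq and 56.7% (54.5 to 59.0) and 56.8% (54.5 to 59.1) by CEL-seq2. Aliquots of 15-pg RNA gave 66.5% (64.5 to 68.5) and lysate gave 63.1% (60.4 to 65.8) by LAST-seq, with intervals that did not reach those of the cells. By CEL-seq2 lysate stood at 57.1% (53.8 to 60.4), within the intervals of the cells.

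**Figure D2:**
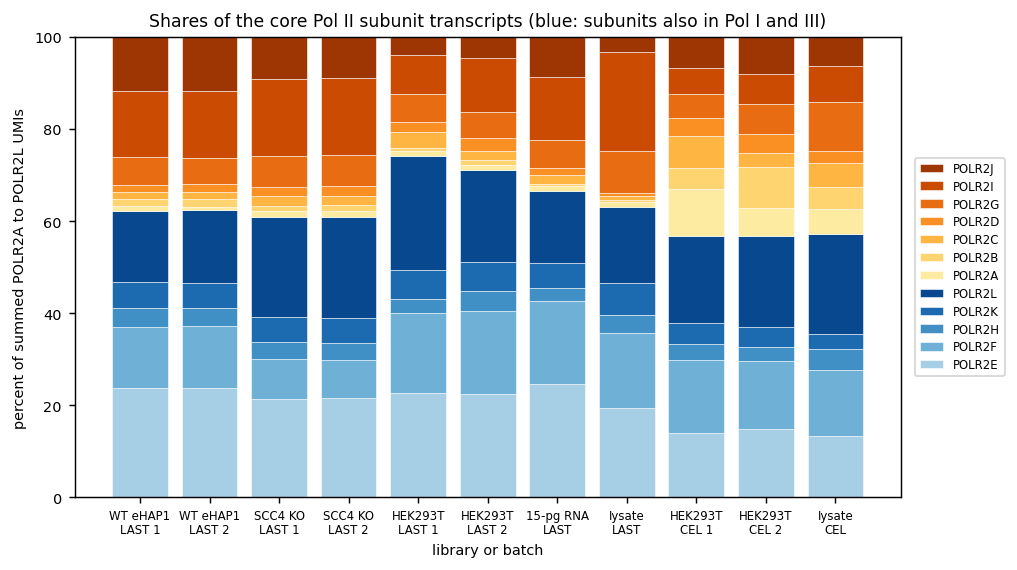
Stacked shares of the 12 core subunits in percent of the summed POLR2A to POLR2L UMIs, 1 bar per library or batch, with subunits that also belong to Pol I and III in blue and those of Pol II alone in yellow to brown. The pairs of eHAP1 bars look alike, the POLR2L band widens from WT to KO while the POLR2F band narrows, and the POLR2A and POLR2B bands are wide in the 3 CEL-seq2 bars only.

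The KO comparison asks how these genes respond to loss of the cohesin loader. With 1 sample per genotype there was no test, and a gene was called when it was past 2-fold in the same direction in batch 1 and in batch 2. Of the 46 members averaging 0.1 UMI or more per cell (MED12L, MED26 and POLR2J2 fell below), 2 were called, and both were lower in KO. That is 4.35% of the members tested, and among all 15609 genes 11.2% were called (5.95% higher, 5.24% lower). At 1.5-fold the count was 4 members, against 23.9% of all genes (13.3% higher, 10.7% lower). The KO and WT batches did not overlap for 35 of 46 members (20 higher, 15 lower), against 64.7% of all genes (35.2% higher, 29.5% lower). The median log2 difference was 0.16 for the members and 0.07 for all genes.

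MED23, a tail subunit through which several activators reach Mediator, was the member with the clearest fall. It lies at positions 131573966 to 131628242 of chromosome 6. It was at 22.7 and 26.5 UPM in WT (167 and 326 UMIs) and at 8.70 and 10.4 in KO (56 and 121 UMIs). The KO batches lay below both WT batches, with a log2 difference of -1.36 (95% counting interval -1.60 to -1.11), or 2.56-fold lower. In cells thinned to 68834 UMIs, MED23 was seen in 83.6% of cells in each WT batch and in 48.4% and 44% of the KO cells. MED23 kept its call in all the alternatives tried, and its log2 difference lay between -1.35 and -1.43. POLR2J3-readthrough, the other call, rested on 12 and 24 UMIs in WT and 4 and 10 in KO (log2 -1.21, counting interval -2.09 to -0.33). It lost its call when cells were weighted equally and when each KO batch was set against each WT batch.

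MED13 showed the largest rise. It stood at 42.5 and 58.0 UPM in WT and at 112 and 104 in KO. The log2 differences were 1.40 in batch 1 and 0.84 in batch 2, so the second missed the 2-fold rule, with 1.03 over both (0.92 to 1.14). Within Mediator its share of UMIs went from 4.93% (4.41 to 5.5) and 6.79% (6.32 to 7.29) to 12.5% (11.7 to 13.4) and 11.5% (10.9 to 12.1). Of the 6 kinase module genes above the filter, 5 were above 0 on the log2 scale and CCNC was at -0.16, with a median of 0.49. CDK19 was at 71.2 and 71.3 in KO (log2 0.53), CDK8 at 16.9 and 11.5 (0.50) and MED13L at 37.1 and 36.1 (0.47), and each lay above its WT batches. MED12 was at 13.7 and 14.6 (0.16), which overlapped its WT batches, and its log2 was -0.07 in batch 1 and 0.31 in batch 2.

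**Figure D3:**
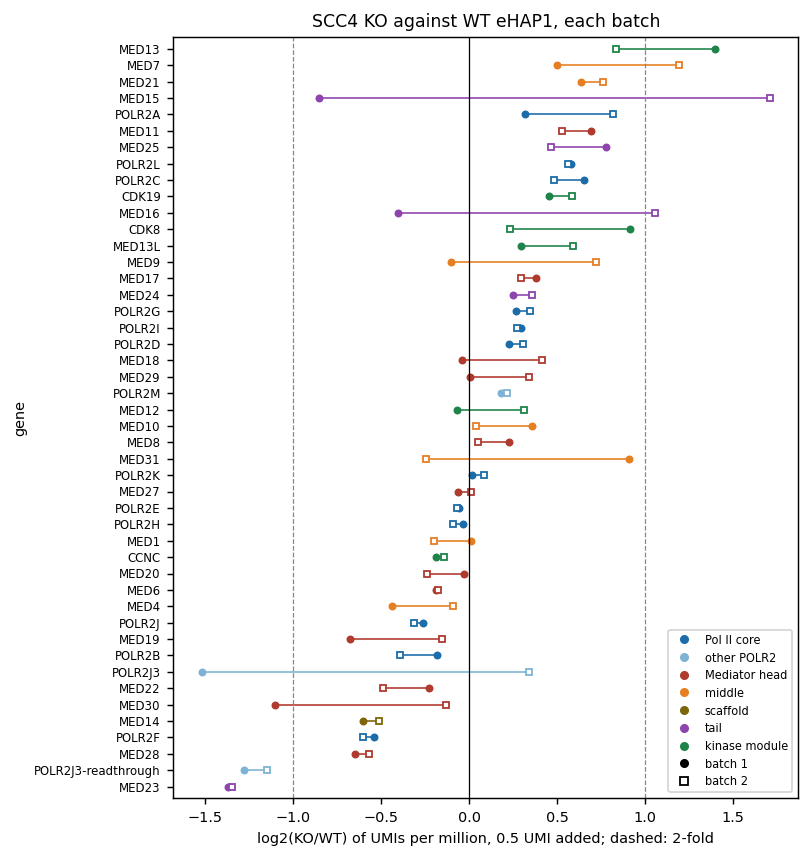
Log2 of KO over WT in UPM for the 46 members above the filter, 1 line per gene with a filled circle for batch 1 and an open square for batch 2, coloured by role, and dashed lines at 2-fold. MED23 and POLR2J3-readthrough are the members with both points beyond a dashed line, on the left, while MED15, MED16, MED31, MED9 and POLR2J3 have points on both sides of 0. MED1, MED12, MED18 and MED27 also have points on both sides, with batch 1 close to 0.

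The core Pol II subunits moved in both directions by less than 2-fold. POLR2L rose from 223 and 225 to 333 and 332 UPM (log2 0.57, counting interval 0.51 to 0.62). POLR2F, in the same set of shared subunits, went from 191 and 193 to 131 and 127 (log2 -0.58, interval -0.66 to -0.51). POLR2A was at 17.3 and 20.1 in KO (log2 0.63) and POLR2C at 33.3 and 31.7 (0.54), both above their WT batches. POLR2E at 326 and 326 differed by -0.07 and POLR2H at 58.3 and 54.0 by -0.07. The median over the 12 was 0.17, with 7 above 0 and 5 below.

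Among the head, middle and scaffold genes, MED28 went from 78.8 and 77.1 to 50.2 and 52.1 (log2 -0.60), and MED14 from 65.0 and 65.5 to 42.7 and 45.9 (log2 -0.54). Neither passed 2-fold, and in both the batches of the genotypes lay apart. MED21 of the middle went from 13.7 and 13 to 21.3 and 22.1 (log2 0.72), and MED7, its partner in a hinge of the middle module, from 8.68 and 3.58 to 12.3 and 8.22 (log2 0.81) with overlap. MED15, a tail subunit, had log2 differences of -0.85 and 1.71 in the batches on 7 to 29 UMIs per batch, and MED16 had -0.41 and 1.06. MED31, MED9 and POLR2J3 also changed sign between batches, as did MED1, MED12, MED18 and MED27, whose batch 1 was near 0. For these, the pooled value carries no direction. MED1 was at 20.5 and 18.4 in KO against 20.3 and 21.1 in WT and overlapped (log2 -0.12).

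The wider transcription machinery was read from 3 lists. Against 11.2% of all genes called, none of the 32 general transcription factor genes tested was called (18 above 0, median 0.08), and none of the 18 Pol I and III subunits (12 below 0, median -0.12). Of all 15609 genes, 8476 were above 0. Of 27 pausing and elongation genes, 1 was called. This was CDK12, a kinase of the Pol II C-terminal repeats, at 57.3 and 55.5 UPM in WT and 21.8 and 20.7 in KO (log2 -1.41). The median of the elongation genes was -0.06.

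HEK293T and WT eHAP1 were compared by LAST-seq, with a call for genes past 2-fold in all 4 pairs of a HEK293T library and an eHAP1 batch. The lines were run in separate experiments with separate gates and pooling, so line and experiment cannot be told apart. Of 46 members tested, 6 were called, 4 higher in HEK293T and 2 lower, against 27.2% of all 16173 genes (14.9% higher, 12.3% lower). Values did not overlap for 34 members (22 higher, 12 lower), against 68% of all genes (39% higher, 28.9% lower). At 1.5-fold in all 4 pairs, 12 members were called (10 higher, 2 lower), against 40.1% of all genes (22.8% higher, 17.3% lower). The median log2 difference was 0.37 for the members and 0.19 for all genes, and TMM scaling, which sets the bulk of genes to no change, moved the latter to -0.06. With it the share of higher calls over all genes went from 54.7% to 44%, and CCNC and MED24 lost their calls.

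MED4, a middle subunit, differed most among the genes with ends of their own. It was at 116 and 118 UPM in HEK293T and at 38.8 and 34.1 in WT eHAP1, 3.26-fold higher (log2 1.70). MED24, a tail subunit next to MED23, was at 138 and 109 against 48.6 and 45.5 (log2 1.40). CCNC was at 175 and 199 against 86.4 and 85.1 (log2 1.13, and 0.88 with TMM). All 3 had both HEK293T libraries above both eHAP1 batches. In other HEK293T material by LAST-seq, MED4 was at 105.5 UPM in total RNA and 157.9 in lysate. MED24 was at 161.4 in total RNA and 62.7 in lysate, and CCNC at 119.0 and 112.8. All of these values were above both eHAP1 batches, but MED24 in lysate and CCNC in both materials lay closer to eHAP1 than the cells did. POLR2J3-readthrough was at 51.9 and 48.4 against 1.63 and 1.95 (log2 4.76), with the shared ends described above. In total RNA POLR2J3-readthrough was at 30.7 and in lysate at 18.8, below the cells and above eHAP1.

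The scaffold MED14 was lower in HEK293T, at 21.8 and 30.5 against 65.0 and 65.5 (2.47-fold, log2 -1.31). POLR2J, the core subunit that pairs with POLR2C, was at 63.9 and 78.8 against 168 and 168 (2.34-fold lower, log2 -1.23). POLR2J was thus the only core subunit called, and its partner POLR2C was higher, at 54.0 and 35.8 against 21.2 and 22.7 (log2 1.02), with 1 HEK293T library past 2-fold. As a share of core UMIs, POLR2J was 3.93% and 4.54% in HEK293T and 11.7% in both eHAP1 batches. In other HEK293T material it was 8.76% in 15-pg RNA and 3.27% in lysate by LAST-seq, and 6.79% and 8.09% in cells by CEL-seq2. In UPM by LAST-seq, POLR2J was at 168 in 15-pg RNA, the level of eHAP1, and at 50.1 in lysate. MED14 was at 25.3 in 15-pg RNA and 35.1 in lysate. The KO and the HEK293T comparisons share the WT cells, so their values for MED14, 0.69 times WT in KO and 0.40 times WT in HEK293T, are not independent.

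Other large differences did not meet the rule. MED29 of the head was at 29.5 and 18.5 against 10.7 and 9.59 (log2 1.26), and POLR2J3 at 7.02 and 7.29 against 4.61 and 2.36 (1.18). MED1 was at 5.61 and 15.9 against 20.3 and 21.1 (log2 -0.91); its HEK293T libraries lay further apart than its eHAP1 batches. MED22 was at 14 and 19.9 against 29.6 and 31.4 (-0.84). MED15 had 1 UMI over both HEK293T libraries and 24 over both eHAP1 batches, a ratio of 3.58 with an exact counting interval of 0.584 to 147. CDK8 was at 7.72 in 1 HEK293T library and 25.8 in the other, on both sides of its eHAP1 levels. The kinase module had 3 genes above 0 and 3 below.

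**Figure D4:**
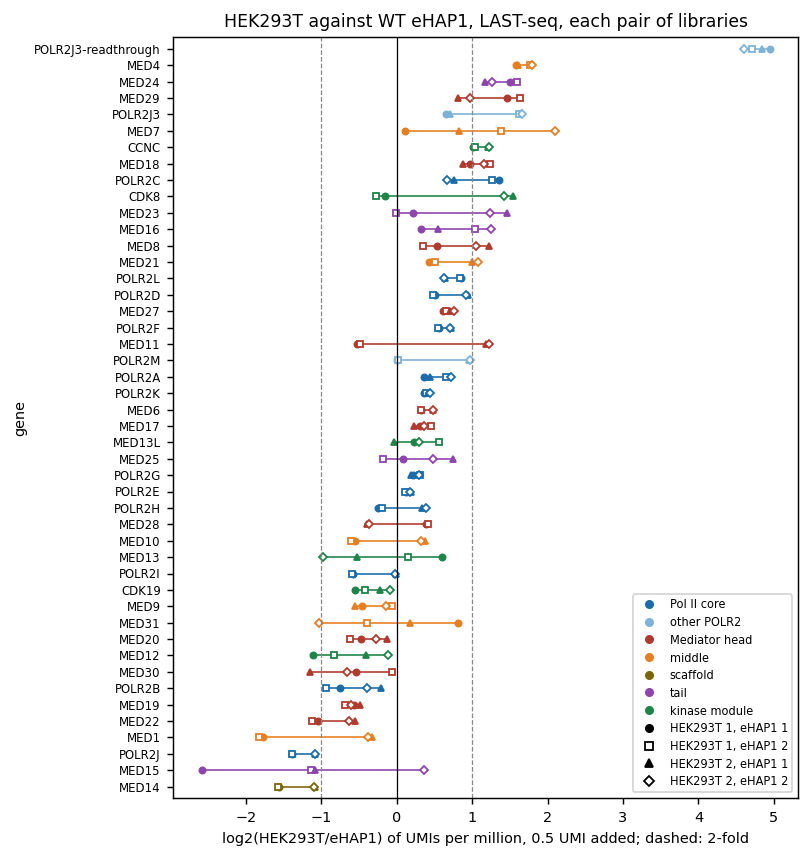
Log2 of HEK293T over WT eHAP1 by LAST-seq in UPM for the 46 members above the filter, with a symbol for each of the 4 pairs of a HEK293T library and an eHAP1 batch, coloured by role, and dashed lines at 2-fold. All 4 symbols lie beyond a dashed line for POLR2J3-readthrough, MED4, MED24 and CCNC on the right and for MED14 and POLR2J on the left, and those of MED31, CDK8 and MED11 span 0.

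By the same rule, 12 of 32 general transcription factor genes were called, 11 of them higher in HEK293T, with a median of 0.80. Among all genes 27.2% were called and 14.9% called higher, with a median of 0.19. With TMM scaling 11 of the 32 were called, 9 of them higher, with a median of 0.54. They included TAF13 (87.7 and 109.9 against 31.6 and 26.9) and GTF2F2 (83.5 and 102 against 27.5 and 28.6), parts of TFIID and TFIIF, and GTF2E2 of TFIIE was the 1 lower (40.7 and 24.5 against 87.5 and 88.8). Of 27 elongation genes 3 were called, CTR9 and PAF1 of the PAF1 complex higher and RTF1 lower, and of 18 Pol I and III subunits POLR3A and POLR3B were higher. Both counts were below the 27.2% of all genes, and with TMM they were 4 and 1.

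The assays were compared on HEK293T single cells with edgeR's quasi-likelihood test on UMIs summed per library, 2 libraries against 2. All 49 members passed the filter, and 20 had an adjusted p under 0.05, 11 higher and 9 lower by LAST-seq, against 16% of all 19276 genes (6.75% higher, 9.23% lower). Without a test, the libraries of the assays did not overlap for 33 members (15 higher, 18 lower), against 61.6% of all genes (16.6% higher, 45.1% lower). Past 2-fold in all 4 pairs of libraries were 14 members (5 higher, 9 lower), against 29.5% of all genes (4.16% higher, 25.3% lower). The labels do not say that the libraries of an assay were separate cultures, so the p-values may measure technical spread only. The median log2 ratio of LAST-seq over CEL-seq2 was 0.21 for the members and -0.33 for all genes. Log2 ratios of this comparison are edgeR's with TMM, whereas UPM are scaled to total UMIs, so the log2 values lie above the ratios of the UPM. By total UMIs, log2 was 1.11 for POLR2E, 0.68 for POLR2F, 0.66 for POLR2L and -1.73 for MED13.

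Of the 12 core Pol II subunits, 7 were called. Those higher by LAST-seq encode small subunits. POLR2E was at 368 and 389 UPM by LAST-seq and 169 and 183 by CEL-seq2 (log2 1.44 ± 0.32 SE, adjusted p = 0.0046), higher in 2 of 2 libraries. POLR2I, a zinc-binding subunit, was at 138 and 205 against 67.6 and 79.7 (log2 1.55 ± 0.34, adjusted p = 0.0048). POLR2K (1.35), POLR2F (1.02) and POLR2L (1.0) were higher too. The 2 catalytic subunits were lower in both LAST-seq libraries, POLR2A with log2 -2.10 ± 0.39 (adjusted p = 0.0014) and POLR2B with -2.07 ± 0.47 (adjusted p = 0.0056). Without 1 LAST-seq library POLR2F and POLR2L lost their calls, as did POLR2I without LAST-seq library 2 and POLR2B without CEL-seq2 library 2. POLR2J3 was lower by LAST-seq, at 7.02 and 7.29 UPM against 65.6 and 74.9 (log2 -2.95 ± 0.46, adjusted p = 0.00035). POLR2J3-readthrough, which shares its end, went the other way, at 51.9 and 48.4 against 32.2 and 24.7 (1.17 ± 0.39, adjusted p = 0.049). POLR2J2 had 0 and 2 UMIs against 10 and 5 (-2.39 ± 1.40) and was not called. Reads could fall to any of these copies.

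The kinase module split as well. CCNC (175 and 199 against 103 and 57.0, log2 1.59 ± 0.34, adjusted p = 0.0036) and CDK19 (35.1 and 44.4 against 15.4 and 10.3, 1.97 ± 0.47, adjusted p = 0.0076) were higher by LAST-seq. MED13 was at 63.9 and 29.1 against 191 and 113 (-1.33 ± 0.39, adjusted p = 0.028), and MED13L at 35.1 and 29.1 against 125 and 84.5 (-1.34 ± 0.36, adjusted p = 0.017). Both lost their calls without LAST-seq library 2 or without CEL-seq2 library 1. MED12L had 1 UMI by LAST-seq and 27 by CEL-seq2, a ratio of 26.3 with an exact counting interval of 4.34 to 1078 (adjusted p = 0.044 by edgeR), and its call was lost in 3 of the 4 fits that left out a library. In lysate, with 1 library per assay, MED13 was at 28.8 UPM by LAST-seq against 37.8 by CEL-seq2, closer than in cells. MED13L was at 12.5 against 47.3, CCNC at 112.8 against 52.03 and CDK19 at 20.05 against 10.64, each in the direction of the cells.

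In the middle and head, MED4 (116 and 118 against 52.8 and 33, log2 1.81 ± 0.35, adjusted p = 0.0018), MED27 (91.2 and 98.0 against 26.4 and 31.6, 2.04 ± 0.36, adjusted p = 0.0011) and MED18 were higher by LAST-seq. MED18, which forms the movable jaw of the head with MED20, had 22 and 22 UMIs by LAST-seq and 3 and 2 by CEL-seq2 (3.46 ± 0.85, adjusted p = 0.0097). MED31 of the middle was at 10.5 and 6.62 UPM against 3.86 and 2.75 (1.71 ± 0.89) and was not called. MED1 was at 5.61 and 15.9 against 102 and 64.6 (-2.58 ± 0.47, adjusted p = 0.0013), and MED11 at 4.21 and 14.6 against 45.0 and 35.7 (-1.74 ± 0.56, adjusted p = 0.041). MED15, with 1 UMI by LAST-seq and 31 by CEL-seq2, had a ratio of 30.2 (exact counting interval 5.04 to 1232, adjusted p = 0.036). The calls of MED11 and MED15 and those of MED12L and POLR2J3-readthrough were also lost with DESeq2. In lysate, with 1 library per assay, MED27 was at 42.6 UPM by both assays, unlike in cells. MED4 was at 157.9 by LAST-seq against 36.7 by CEL-seq2, and MED18 at 10.02 against 5.91. MED1 was at 7.52 against 21.3, MED11 at 11.3 against 55.6 and MED15 at 0 against 13.01. These kept the direction of the cells. In 15-pg RNA by LAST-seq, MED27 was at 97.4, near its level in cells, and this material had no CEL-seq2 library. Why MED27 did not differ in lysate was not tested.

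Transcript length was set beside the ratio. Over all 49 members, Spearman's rho between the length of the canonical transcript and log2 of LAST-seq over CEL-seq2 was -0.31. Over 12954 protein-coding genes it was -0.24, and over 19192 genes of all types -0.04. Genes are not independent replicates, and length goes with exon number and gene size. Of the 14 members with transcripts over 4000 bases, 5 were called lower and 1 higher by LAST-seq. Of the 17 between 2000 and 4000 bases, 4 were called higher and 2 lower, as were 4 and 2 of the 10 under 1000 bases, and of the 8 between 1000 and 2000 bases, 2 were called higher and none lower. Calls of the members, few per length group, thus did not change step by step with length. Over all protein-coding genes the median log2 did fall from each length group to the next. It was 0.51 under 1000 bases, 0.17 to 2000, 0.003 to 4000 and -0.45 above. The part of length in the ratio was not tested.

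**Figure D5:**
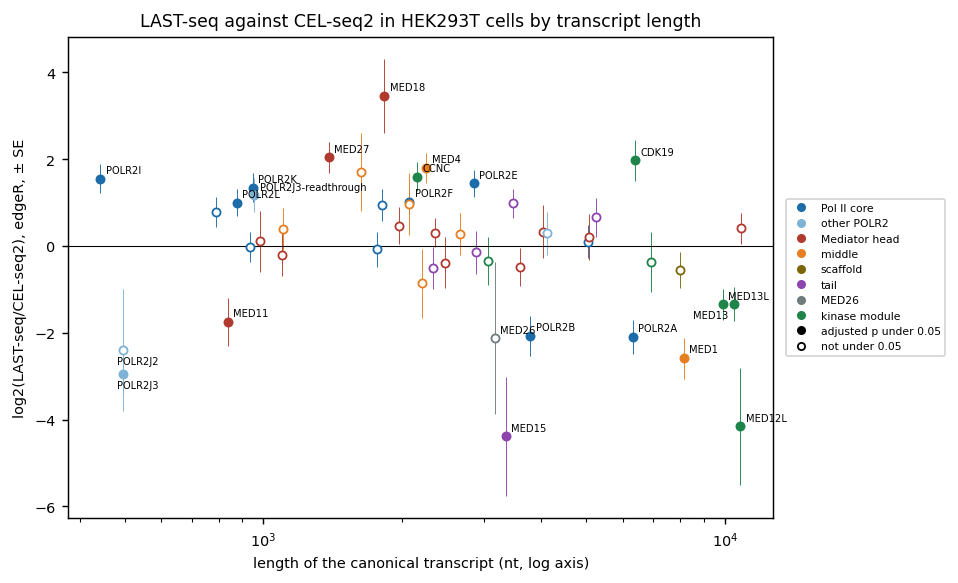
Log2 of LAST-seq over CEL-seq2 in HEK293T cells (edgeR, bars ± SE) against the length of the canonical transcript (bases, log axis) for all 49 genes, filled where the adjusted p was under 0.05. MED13, MED13L, MED1, POLR2A and MED12L lie below 0 on the right and POLR2I, POLR2L and POLR2K above 0 on the left, with CDK19 at 1.97 as a long transcript above 0.

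In the 3 lists, 11 of 33 general transcription factor genes were called (7 higher by LAST-seq, 4 lower), 5 of 28 elongation genes (all lower) and 2 of 18 Pol I and III subunits. The share over all genes was 16% (6.75% higher, 9.23% lower).

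Cell-to-cell noise was read in eHAP1 as excess CV squared, the variance above the mean over the squared mean, of UMIs thinned to 68834 per cell, which is 0 for counting noise alone. This used 61 and 73 WT cells and 62 and 75 KO cells and left out 12, 2, 15 and 1 shallower ones. The level of 0 holds for uncorrected counts, and whether these counts had passed a batch correction was not tested. The median member was at 0.0250 and 0.0214 in the WT batches and at 0.0649 and 0.0177 in KO, and the median of all genes was at 0.0253 and 0.0299 in WT and 0.0435 and 0.0227 in KO. The KO batches lay further apart from each other than the means of the genotypes. POLR2E, at 23.0 and 23.3 UMIs per thinned WT cell, had an excess of -0.00101 and -0.00671, at the counting level.

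Of the 28 members with a thinned mean of at least 1 UMI in every batch, the 5 noisiest in WT were MED13, MED13L, POLR2B, MED8 and POLR2C. Their values differed between batches, most for MED13 with 0.428 in batch 1 and 0.0246 in batch 2. MED8 had 0.105 and 0.240 and MED13L 0.107 and 0.282 in WT. In KO, MED8 was higher in both batches, at 0.284 and 0.377. The 5 lowest were MED4, MED10, MED24, CCNC and POLR2D, whose batch values ran from -0.0971 to 0.0571. Batches did not overlap between genotypes for 13 members, 7 higher in KO and 6 lower, against 35.4% of all genes (19.5% higher, 15.8% lower). MED25, a tail subunit, had 0.0141 and 0.127 in WT and 0.459 and 0.331 in KO. CDK19 had 0.0138 and 0.0225 in WT and -0.0699 and -0.0391 in KO, below the counting level.

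Pairs of subunits were also read for common variation from cell to cell. Spearman's rho over thinned cells between pairs of core Pol II subunits had a median between -0.0183 and 0.00775 in the 4 batches, and between pairs of Mediator genes between -0.0144 and 0.00521. For pairs of all genes the median was between 0.00023 and 0.000818. Counts of a few UMIs per cell limit what such correlations can show.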

How the data were processed

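UMI tables of LAST-seq and CEL-seq2 were used. By the study's methods, the authors trimmed reads with cutadapt 1.15, aligned them to GRCh38.p13 with GENCODE 33 and counted exonic reads with zUMIs 2.9.7, after bcl2fastq 2.20 and subsampling to an equal depth. UMIs were collapsed by identity. The deposited values are whole UMI counts per gene and well, not scaled to a common total. ComBat-seq is named for eHAP1, but whether the deposited counts had passed it is not stated. SMART-seq read tables were not used. Samples were grouped by their labels, and the eHAP1 batch was read from the cell names.

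The members and lists were chosen with earlier results of these data known. Counts were summed per library or batch. Folds used total UMIs, 0.5 UMI added and genes averaging 0.1 UMI or more per cell over the groups compared. The assay test was edgeR 4.0.16 (R 4.3.3) with TMM and Benjamini-Hochberg adjustment over all genes tested, and DESeq2 1.42.0 was an alternative. BASiCS, which the study used between genotypes, was not run. Named members were the core and kinase genes, MED14, MED1, every call, and the 5 largest rises and falls per comparison. Noise and shares had no test. The residual of noise was taken from log10 of CV squared, since excess CV squared can fall below 0. Promoters came from RefSeq (GRCh38.p14), which held 42 promoters of 35 of the 48 member symbols. Coordinates and transcript lengths came from a later GENCODE release than the authors', which held at least 99.5% of the listed genes.

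On simulated counts for the assay comparison (19276 genes, 100 changed 4-fold), edgeR found 88 with 2 false calls, and the rule of 2-fold in all pairs found 92 with 451. For KO against WT (15609 genes) the fold rule found 95 of 100 with 21 false calls, and for HEK293T against eHAP1 (16173 genes) 91 with 254. These counts are for 4-fold changes and do not give the recovery of smaller ones, such as the 2.56-fold of MED23. The spread of the data differed by group. Over genes with at least 1000 UMIs, the median squared difference in SD units of counting was 42.4 between the CEL-seq2 libraries of cells. It was 5.12 between the HEK293T LAST-seq libraries of cells, and 0.214 and 0.119 between the WT and KO batches. Whether the counts found in simulation carry over to these spreads was not tested. The 95% intervals describe counting error alone. Python 3.11.15 with numpy 2.4.6, pandas 2.3.3, scipy 1.17.1 and matplotlib 3.10.9 was used.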

Additional observations from a re-analysis of the deposited data

How the results depend on the processing

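The count of members called in KO against WT depended most on the rule. It was 2 with 2-fold in each batch, 1 with a filter at a mean of 1 UMI, 1 with cells weighted equally, 1 with all 4 pairings of batches, and 4 at 1.5-fold. On the sums per batch it was 17 with edgeR and 13 with DESeq2, tests whose error comes from 2 batches of 1 sample per genotype. All genes called went from 1746 to 6742 without a filter, 549 with a mean of 1 UMI, 3737 at 1.5-fold, 4431 with edgeR and 4346 with DESeq2. With a single batch, 5 members were called from either (3923 to 4061 genes). Batch 1 alone added MED13, MED30 and POLR2J3, and batch 2 alone MED7, MED15 and MED16.

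The batch numbers share only a number and were not shown to pair samples. With the number as a replicate block, edgeR called 19 members and 4961 genes in KO against WT, 10 and 4710 in HEK293T against eHAP1, and 18 and 3018 between the assays.

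In HEK293T against eHAP1, 6 members became 12 at 1.5-fold and 7 to 11 when 1 library or batch was left out. All genes went from 4392 to 6742 without a filter, 2222 with a mean of 1 UMI, and 5456 to 6658 with 1 left out. Between the assays, 20 members became 14 to 16 when a library was left out (2419 to 2637 genes of 3081), 16 with DESeq2 and 14 under the fold rule, which called 5686 genes. By total UMIs the split of genes under the fold rule was 14.1% higher and with TMM 25.3%, and the median ratio of all genes was -0.67 and -0.31. A minimum of 2-fold beside the adjusted p, chosen after seeing the data, left 20 members. With 1 library left in an arm, it was assumed to vary like the other arm. Median noise in WT was 0.0232, and 0.0447 in unthinned cells. Shares of shared subunits as a mean over cells were 62.4% for WT, 60.8% for KO and 56.3% for CEL-seq2. No called member changed direction under the alternatives. Among those not called, MED15 was at -0.85 from batch 1 alone and 1.71 from batch 2 alone in KO against WT. MED16, MED31, MED9 and POLR2J3 also changed sign there, as did MED1, MED12, MED18 and MED27 with batch 1 near 0. Between the HEK293T libraries CDK8 changed sign, among others. Members of a few UMIs, namely MED12L, MED15, MED26 and the POLR2J2 and POLR2J3 genes, are limited by depth.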

Other observations

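Promoter letters were counted over all member promoters in the RefSeq table, 42 of 35 symbols, beside all 35116 promoters of the same 250 bases. The GC box GGGCGG was held by 61.9% of member promoters and 42.6% of all, and the ETS core CCGGAAG by 21.4% and 8.52%. The CCAAT box was held by 26.2% and 32.0%, TATAAA by 7.14% and 10.7%, and the E-box CACGTG by 4.76% and 6.34%. Several promoters belong to 1 gene, both strands were searched, the GC-rich motifs follow base composition, and no test was made.

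In wells of 15-pg RNA and lysate, where cells do not differ, the median excess CV squared of the members was -0.0168 and -0.0113 by LAST-seq, and 0.0175 and 0 in the LAST-seq cells. By CEL-seq2 it was 0.0738 and 0.0743 in cells and 0.0129 in lysate. For all genes it was 0.108 and 0.131 in CEL-seq2 cells and -0.000294 and -0.00112 in LAST-seq cells.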
